A study of Bos taurus with 30 samples.

Results

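Collagen genes were examined across 30 RNA-sequencing libraries from a bovine endometrium-on-a-chip. Members were the genes whose symbol in the deposited tables consisted of COL, a type number, A and a chain number, which gave 34 of the 27607 genes counted. They were grouped by the kind of polymer they form into 10 fibrillar, 8 basement membrane, 4 beaded and 12 other collagens. The device held primary endometrial epithelial cells in its upper chamber and stromal-enriched cells on the underside of a porous membrane in its lower chamber, both isolated from uteri of nonpregnant cows early in the luteal phase and kept under flow. The glucose experiment compared 5 mM with 50 mM glucose (12 libraries). The insulin experiment compared vehicle (acetic acid in phosphate-buffered saline) with 1 and 10 ng/mL insulin (18 libraries), all in medium with 5 mM glucose. Each of the 10 groups of cell type and treatment held 3 libraries, numbered 1 to 3 in the labels and described by the study as biological replicates. Libraries held between 8826470 and 16647701 counted reads, and a floor of 3 reads corresponded to 0.34 CPM (reads of a gene scaled to a common library total) in the smallest and 0.18 CPM in the largest. CPM is not corrected for gene length, so levels are compared between libraries and not between genes.

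Collagens are extracellular proteins built from chains that wind into a triple helix. Fibrillar collagens such as types I, III and V form the cable-like fibrils of connective tissue, and in the endometrium they are the main matrix of the stroma. Network collagens, above all type IV, form the sheet of the basement membrane that separates epithelium from stroma. Type VI forms beaded filaments around cells, and the remaining types decorate fibrils, anchor epithelia or span the cell membrane.

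The labelled cell types were checked against markers that included no collagen. In the insulin experiment the epithelial adhesion gene EPCAM ranged from 402 to 542 CPM in epithelial libraries and from 0 to 22.2 CPM in stromal libraries. The mesenchymal filament gene VIM ranged from 573 to 702 CPM in epithelial and from 3789 to 4449 CPM in stromal libraries, and the stromal proteoglycan gene DCN from 9.61 to 81.8 CPM and from 931 to 1425 CPM. Stromal markers were thus present at a low level in epithelial libraries. In the glucose experiment EPCAM reached 307 CPM in a stromal library. The summed level of the 25 epithelial markers in stromal libraries was 1185, 351 and 103 CPM at 5 mM and 2314, 1264 and 7520 CPM at 50 mM glucose, against 10931 to 22461 CPM in epithelial libraries of that experiment. Replicate 3 of the stromal cells at 50 mM glucose therefore stood apart, and results that rest on it are given with and without replicate 3. In a bulk library, fewer cells of a type and less RNA per cell cannot be told apart. Of the lists for other cells, 6 smooth muscle and pericyte markers summed to 502 to 4028 CPM in stromal libraries and 9.40 to 351 CPM in epithelial libraries, 5 of 6 endothelial markers to at most 76.9 CPM and 4 of 6 leukocyte markers to at most 19.7 CPM in any library. Smooth muscle and pericyte markers were thus higher in stromal than in epithelial libraries, and their part in the values of stromal collagens was not tested.

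Collagen transcripts made up a large part of stromal libraries. At 5 mM glucose they took 8.58, 8.54 and 8.30% of all counted reads in stromal cells (8.47% ± 0.154, SD, n = 3) and 0.608, 0.611 and 0.303% in epithelial cells (0.508% ± 0.177, SD, n = 3). In the insulin vehicle group the share was 6.01, 7.42 and 9.28% in stromal and 0.214, 0.153 and 0.528% in epithelial libraries. The groups did not overlap. At 50 mM glucose the stromal share was 8.91, 7.34 and 2.79%, and the lowest of these was the library that stood apart. The makeup differed between the cell types too. Fibrillar genes held 67.1% to 77.7% of stromal collagen reads as group means and 40.3% to 55.7% of epithelial collagen reads, while basement membrane genes held 5.56% to 9.04% of the stromal and 18.3% to 32.8% of the epithelial reads. By library the fibrillar shares overlapped. Epithelial replicates 1 and 2 at 50 mM glucose were at 62.4% and 62.7%, above stromal replicate 3 at 5 mM (61.5%) and 50 mM (59.2%). The basement membrane shares did not overlap, with 11.5% the highest in stromal and 13.3% the lowest in epithelial libraries.

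**Figure D1:**
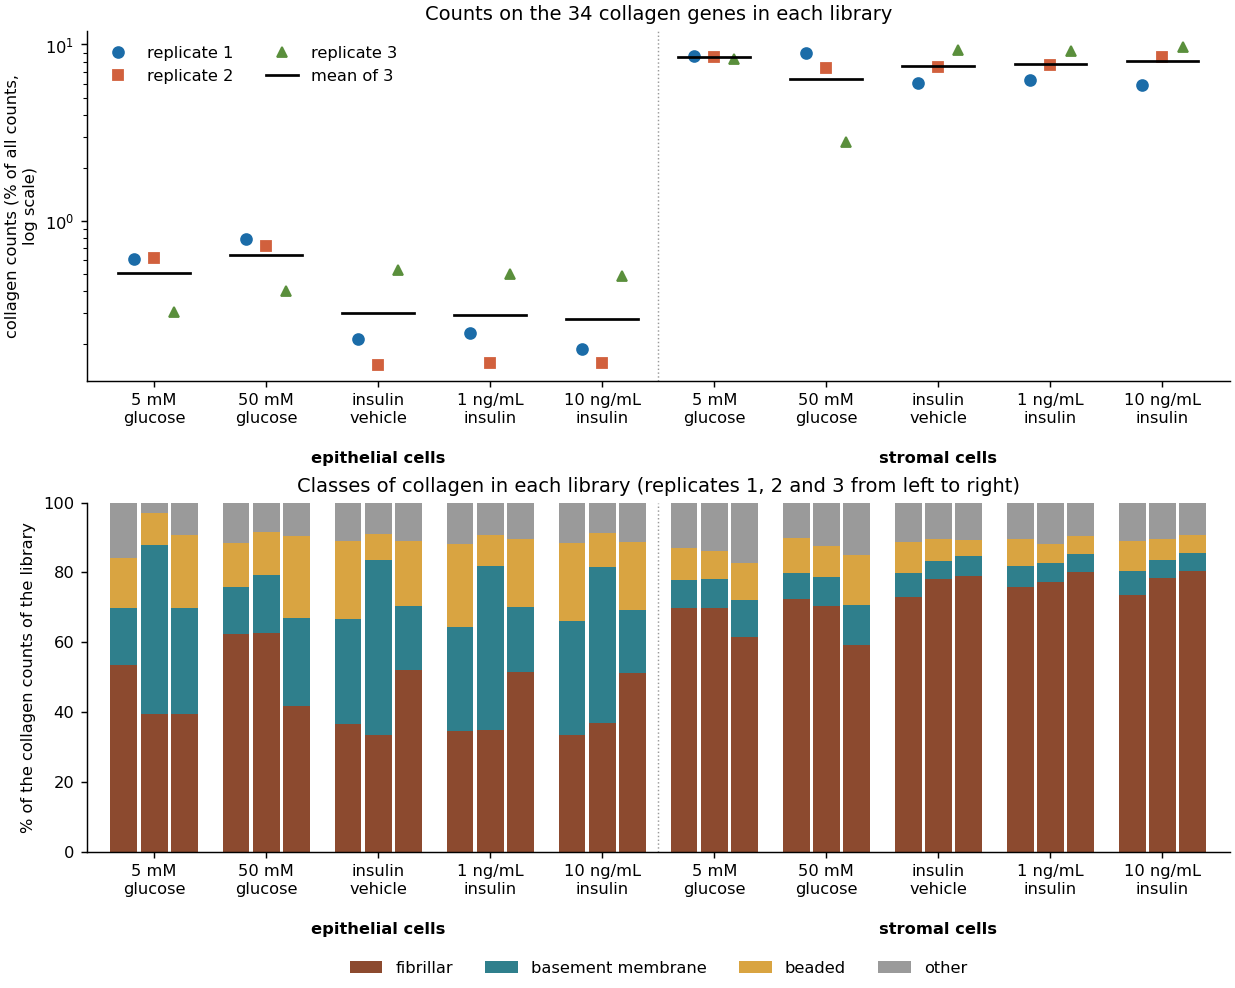
Collagen reads as a percentage of all counted reads in each library on a log axis (points by replicate, with group means as lines) and, below, the share of each collagen class among the collagen reads of each library (stacked bars). Stromal libraries sit between 2.79% and 9.66% and epithelial libraries between 0.153% and 0.790%.

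The stromal and epithelial libraries were compared within each treatment with the quasi-likelihood test of edgeR, adjusting p-values by the Benjamini-Hochberg method over all genes tested, and a gene was called at an adjusted p under 0.05 and a log2 fold change beyond 0.1 in either direction. At 5 mM glucose 28 members passed the filter on low counts, of which 18 were called higher and 3 lower in stromal cells, against 10.6% and 10.5% of all genes tested. At 50 mM glucose 18 of 27 were called higher and 0 lower, against 10.9% and 6.39%. The 0 lower calls stood beside 3 members lower at an unadjusted p under 0.05 and 3 called lower by DESeq2. In the insulin experiment 26 members were tested in each comparison. With vehicle, 1 ng/mL and 10 ng/mL insulin, 19 were called higher and 5 lower each time. The background for higher calls was 27.3%, 29.3% and 27.3%, and for lower calls 27.8%, 29.6% and 27.1%. The median log2 fold change of the members tested was 3.65 and 2.70 at 5 and 50 mM glucose and 3.54, 3.60 and 3.74 at the rising insulin doses, where the median of all genes lay between -0.03 and 0.01. A set of 17 collagens was called higher in stromal cells in all 5 comparisons.

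Fibrillar collagens had the highest class median in each comparison, at 4.47 and 3.22 at 5 and 50 mM glucose and 5.35, 5.37 and 5.54 at the rising insulin doses, with 7 of 10 called higher in every comparison: COL1A1, COL1A2, COL3A1, COL5A1, COL5A2, COL5A3 and COL11A1. COL1A1 and COL1A2 encode the chains of type I collagen, the main fibril of connective tissue. At 5 mM glucose COL1A1 was at 1018, 693 and 244 CPM in epithelial and 23136, 22772 and 17538 CPM in stromal libraries, a log2 fold change of 5.44 (SE 0.59, adjusted p = 0.00543). With insulin vehicle it was at 175, 88.6 and 847 CPM in epithelial and 16538, 21901 and 28561 CPM in stromal libraries, a log2 fold change of 6.60 (SE 0.71, adjusted p = 0.00248). No epithelial library reached a stromal one. COL3A1, the chain of type III collagen, was at 118, 68.4 and 407 CPM against 8907, 13110 and 13610 CPM in the same groups. COL5A1 and COL5A2, whose trimer starts fibrils and limits their width, had log2 fold changes of 4.09 (SE 0.27) and 5.35 (SE 0.61) with vehicle. COL11A1, a close relative of the type V chains, was at 1.33, 3.31 and 7.69 CPM in epithelial and 301, 390 and 379 CPM in stromal libraries with vehicle, and its log2 fold change of 6.75 (SE 0.45, adjusted p = 0.00107) was the highest of any member there.

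A fibrillar gene went the other way in the insulin experiment. COL27A1, a fibrillar collagen with a shorter triple helix, was at 109, 131 and 110 CPM in epithelial and 10.7, 20.4 and 14.8 CPM in stromal libraries with vehicle (log2 fold change -2.89, SE 0.20, adjusted p = 0.00113), and was also called lower at 1 and 10 ng/mL insulin. In the glucose experiment it was at 140, 377 and 231 CPM in epithelial and 127, 92.7 and 146 CPM in stromal libraries at 5 mM. There the groups overlapped, and the log2 fold change of -0.71 (SE 0.48) was not called (adjusted p = 0.375). The 2 fibrillar members not called in any of the 5 comparisons, COL2A1 and COL11A2, lay at or below 11.1 CPM in every library. Without replicate 2 COL11A2 was called lower in stromal cells at all 3 insulin treatments (-1.70, -2.40 and -1.79).

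Basement membrane collagens split by chain. COL4A1 and COL4A2, neighbouring genes whose products form the common type IV trimer, were called higher in stromal cells in every comparison. COL4A1 was at 293, 547 and 175 CPM in epithelial and 3801, 4063 and 5176 CPM in stromal libraries at 5 mM glucose (log2 fold change 4.04, SE 0.57, adjusted p = 0.00807), and at 176, 125 and 236 CPM and 2469, 2262 and 3344 CPM with insulin vehicle (4.02, SE 0.18, adjusted p = 0.000899). COL4A5 and COL15A1, the latter a proteoglycan of the basement membrane zone, were likewise called higher in all 5 comparisons. COL15A1 had log2 fold changes from 2.36 (SE 0.36) at 50 mM glucose to 2.94 (SE 0.46) at 5 mM glucose.

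COL4A3 and COL4A4 encode chains that join COL4A5 in a specialized type IV trimer of some epithelial basement membranes, and both were lower in stromal cells. With insulin vehicle COL4A3 was at 9.96, 53.5 and 44.9 CPM in epithelial and 0.262, 2.35 and 1.19 CPM in stromal libraries (log2 fold change -4.75, SE 0.21, adjusted p = 0.000899). COL4A4 was at 3.61, 17.3 and 11.2 CPM and 0.700, 1.54 and 0.108 CPM (-3.58, SE 0.58, adjusted p = 0.00704). The third chain, COL4A5, was at 0.941, 1.45 and 2.81 CPM in the epithelial and 23.4, 30.2 and 22.2 CPM in the stromal libraries, the reverse of its partners. COL4A3 and COL4A4 together made up 12.8, 23.0 and 18.7% of the reads of COL4A1 to COL4A4 in epithelial libraries at 5 mM glucose, and between 4.93% and 26.0% in epithelial libraries of the insulin experiment. In stromal libraries this share stayed between 0.00498% and 1.88%, and the highest was the library that stood apart.

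COL18A1, a basement membrane proteoglycan that carries the endostatin fragment, was at 299, 419 and 473 CPM in epithelial and 189, 184 and 100 CPM in stromal libraries with vehicle (log2 fold change -1.28, SE 0.29, adjusted p = 0.018), and was called lower at all 3 insulin treatments. In the glucose experiment it was not called, except higher in stromal cells at 50 mM without replicate 3 (0.73). Its levels at 5 mM were 410, 1713 and 444 CPM in epithelial and 624, 717 and 570 CPM in stromal libraries, and its log2 fold change of 0.14 (SE 0.51) changed sign with the model. Epithelial replicate 2 held the extreme value. In that library basement membrane genes made up 48.4% of all collagen reads.

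All 3 beaded collagens that passed the filter were called higher in stromal cells in every comparison. COL6A1, COL6A2 and COL6A3 encode the 3 chains of the standard type VI trimer. COL6A1 was at 168, 158 and 152 CPM in epithelial and 1743, 1975 and 2033 CPM in stromal libraries at 5 mM glucose (log2 fold change 3.80, SE 0.38, adjusted p = 0.00543). With vehicle it was at 138, 29.7 and 282 CPM and 1635, 1463 and 1277 CPM (3.82, SE 0.75, adjusted p = 0.0121). The stromal values were tight and the epithelial values of the insulin experiment were spread by replicate. COL6A5 was at or below 0.682 CPM in every library.

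Among the other collagens, COL12A1, COL16A1 and COL8A2 were called higher in stromal cells in all 5 comparisons. COL12A1, which coats fibrils and links them to the surrounding matrix, was at 770, 83.2 and 147 CPM in epithelial and 10893, 11583 and 14079 CPM in stromal libraries at 5 mM glucose (log2 fold change 6.13, SE 0.87, adjusted p = 0.00799). COL16A1, another fibril-associated collagen, was at 0.865, 0.889 and 1.10 CPM against 19.9, 45.8 and 52.4 CPM (5.47, SE 0.45, adjusted p = 0.00543). In neither gene did an epithelial library reach a stromal one.

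COL14A1, which is also fibril-associated, was called in the insulin experiment. It was at 10.1, 17.6 and 15.9 CPM in epithelial and 108, 47.5 and 112 CPM in stromal libraries with vehicle (log2 fold change 2.65, SE 0.40, adjusted p = 0.00571). At 5 mM glucose the stromal values of 13.6, 135 and 35.5 CPM were far apart and the adjusted p was 0.0502 for a log2 fold change of 3.11 (SE 0.85). It was called there by DESeq2 (3.12), with no replicate block (3.77), without the filter on low counts (3.11) and without each replicate number in turn (2.03 to 4.02). At 50 mM it was called by DESeq2 (2.28) and without replicate 2 (1.18). COL7A1, the anchoring fibril collagen that ties epithelium to the underlying matrix, was called higher in stromal cells in the insulin experiment as well, by 1.37 (SE 0.38, adjusted p = 0.0355) with vehicle. The deposited tables annotate the COL7A1 gene as a pseudogene. With no replicate block it was not called at any of the 3 insulin treatments, at 1.25, 1.30 and 1.48, and with vehicle it was not called without replicate 1 (1.74) or replicate 3 (1.53). COL8A1, a short-chain network collagen, was called only in the glucose experiment, at 8.45, 8.08 and 1.71 CPM in epithelial and 78.8, 83.8 and 59.5 CPM in stromal libraries at 5 mM (4.07, SE 0.52, adjusted p = 0.00671). At 50 mM it was not called with no replicate block (3.12) or without replicate 1 (2.79). With insulin vehicle its stromal values of 14.4, 50.5 and 4.33 CPM overlapped the epithelial values of 7.53, 2.89 and 16.0 CPM.

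COL17A1, a transmembrane collagen of the hemidesmosome by which epithelial cells attach to the basement membrane, was higher in epithelial cells. With vehicle it was at 26.6, 59.2 and 21.5 CPM in epithelial and 0.175, 5.25 and 0.217 CPM in stromal libraries (log2 fold change -4.60, SE 0.66, adjusted p = 0.00493). At 5 mM glucose it was at 123, 51.4 and 101 CPM and 12.4, 0.126 and 0.305 CPM (-6.18, SE 1.28, adjusted p = 0.021). At 50 mM glucose the stromal values were 32.5, 5.39 and 91.2 CPM, and the first and last of these lay within the epithelial range of 31.9 to 154 CPM. There COL17A1, COL4A3 and COL4A4 had log2 fold changes of -1.55, -1.89 and -2.08 and adjusted p-values of 0.0679, 0.0932 and 0.0615. Without replicate 3 all 3 were called at 50 mM glucose, at -2.20, -2.65 and -2.74. At 5 mM glucose they were not called without replicate 2, at -4.93, -4.03 and -3.84. Leaving out replicate 1 at 50 mM left 0 members and 0 of all genes called in either direction, against 21 members without replicate 2 and 23 without replicate 3. The shares of all genes called without replicate 2 or replicate 3 are not given here.

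**Figure D2:**
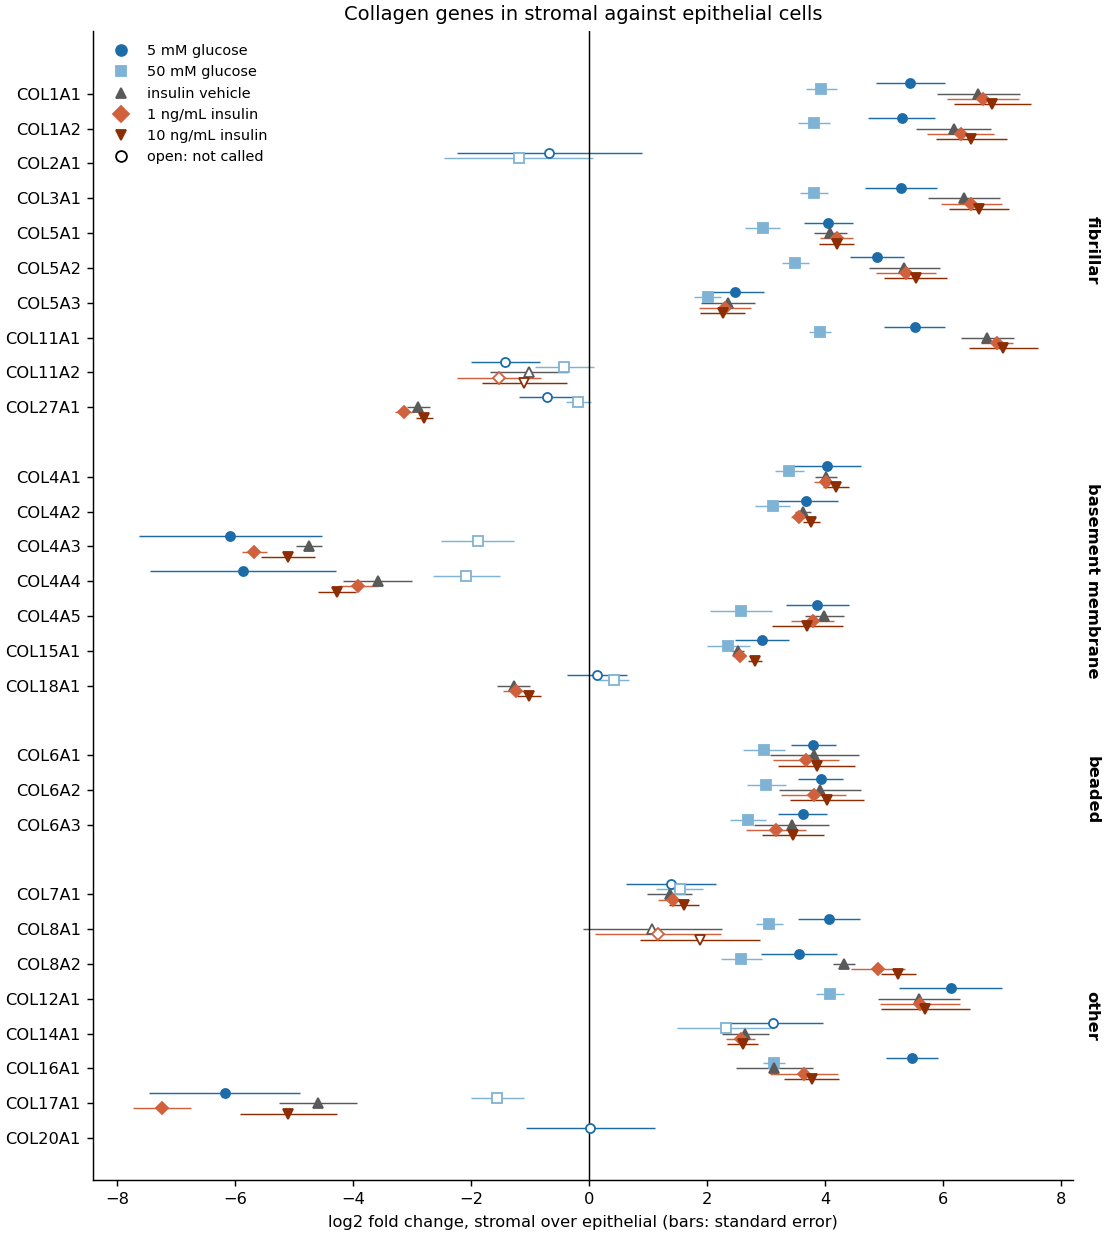
Log2 fold change of stromal over epithelial cells for each collagen tested in each of the 5 treatments, with genes ordered by class, standard errors as bars and filled points for genes called by edgeR. Most fibrillar, beaded and COL4A1/COL4A2 points lie at or above 2, while COL4A3, COL4A4 and COL17A1 lie below 0.

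Collagens of one cell type were also read in the libraries of the other. The 17 collagens called higher in stromal cells in all comparisons stood in epithelial libraries at a median of 6.75, 5.81 and 5.69% of their stromal mean at 5 mM glucose, where the stromal markers stood at 13.3, 3.08 and 5.61%. With insulin vehicle the collagens stood at 4.50, 2.04 and 10.7% and the stromal markers at 6.35, 2.06 and 12.6%. The order of the 3 insulin replicates was the same for both, at every dose. In the glucose experiment the orders differed at both doses. At 50 mM the collagens stood at 8.69, 9.94 and 6.31% and the stromal markers at 12.5, 10.5 and 8.06%. In stromal libraries of the glucose experiment COL17A1 stood at 13.5, 0.137 and 0.332% of its epithelial mean at 5 mM and at 35.4, 5.87 and 99.3% at 50 mM. The epithelial markers stood at 6.96, 0.0143 and 0.0828% and at 13.6, 5.29 and 59.1%. COL4A3 and COL4A4 had the same lowest library at 50 mM and the same highest one. In stromal libraries of the insulin experiment COL4A4 stood at 6.56% in vehicle replicate 1 and 13.5% in replicate 2 at 1 ng/mL. The epithelial markers stood at 0.0769% and 0% there. In replicate 1 at 10 ng/mL COL4A4 stood at 2.13%, below the markers at 3.72%. These COL4A4 values rest on few reads. Whether these levels came from cells of the other type was not tested.

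**Figure D3:**
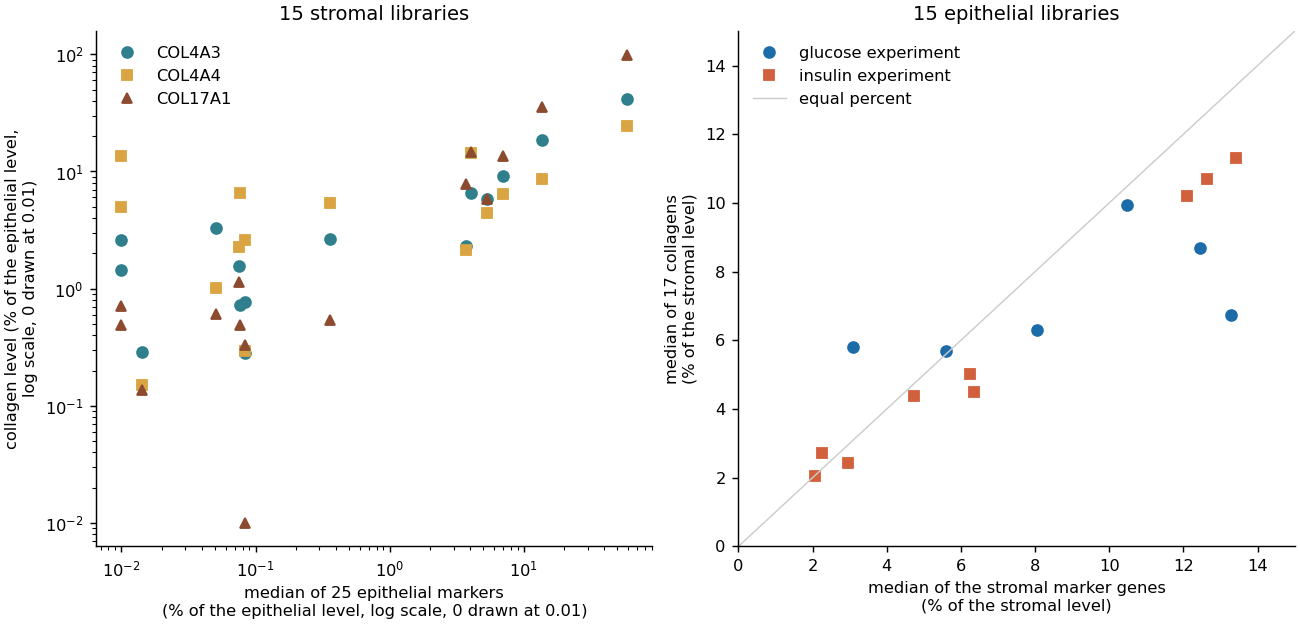
On the left, COL4A3, COL4A4 and COL17A1 in the 15 stromal libraries as a percentage of their epithelial level against the median percentage of the epithelial markers (log axes), and on the right the median percentage of 17 stromal collagens in the 15 epithelial libraries against that of the stromal markers (linear axes, with the line of equal percentages). On the left, stromal replicate 3 at 50 mM glucose lies at the upper end, with COL17A1 at 99.3% and the epithelial markers at 59.1%.

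The change between the cell types was compared between the 5 mM glucose and insulin vehicle groups, which both had 5 mM glucose and no added insulin. No member was called (0 of 28 by edgeR, against 0% of all genes). At an unadjusted p under 0.05 there were 2 members, or 7.14%, against 10.2% of all genes. These were COL27A1, with a difference in log2 fold change of 2.18 (SE 0.56), and COL16A1 with 2.20 (SE 0.89), both higher in the glucose experiment. The calls of COL27A1 and COL18A1 in the insulin experiment alone were therefore not shown to differ from the glucose experiment (lowest adjusted p over the members 0.355, edgeR).

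Some chains that assemble together were read in steady proportion. The ratio of COL1A1 to COL1A2 reads varied by 1.53-fold between the lowest and the highest of the 30 libraries, and that of COL6A1 to COL6A2 by 1.38-fold, although COL1A1 ranged from 88.6 to 29639 CPM and COL6A1 from 29.7 to 2033 CPM. The log2 ratio of COL4A1 to COL4A2 lay between 1.19 and 1.39 in all stromal libraries and between 0.58 and 1.24 in epithelial libraries. Other partners were looser. The COL6A3 to COL6A1 ratio varied by 3.74-fold and the COL5A1 to COL5A2 ratio by 5.39-fold. COL4A3 to COL4A4 varied most, by 29.3-fold, with log2 ratios of 0.95 to 2.21 in epithelial libraries and -1.42 to 3.46 in stromal libraries, and its extremes lay in stromal libraries of the insulin experiment, where both genes were at or below 2.35 CPM. COL5A1 exceeded COL5A2 most in epithelial replicate 2 of the insulin vehicle group, at a log2 ratio of 2.32, against -0.11 in the lowest stromal library.

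Genes that make and read collagens differed between the cell types as well. Of 32 measured genes for hydroxylation, secretion, trimming and cross-linking of collagen, 21 of 31 tested were called higher and 0 lower in stromal cells at 5 mM glucose, against 10.6% and 10.5% of all genes tested. With vehicle 23 of 31 were higher and 2 lower, against 27.3% and 27.8%. The genes with the largest changes were P4HA3, a prolyl hydroxylase subunit, at 6.92 (SE 0.75, adjusted p = 0.00253) with vehicle, and ADAMTS3, which removes the amino-terminal propeptide of fibrillar procollagens, at 4.75 (SE 0.43, adjusted p = 0.00171). PCOLCE, which speeds trimming at the other end, followed at 4.67 (SE 0.50, adjusted p = 0.00253). Of 8 collagen receptor genes measured, 5 were called higher in stromal cells in every comparison, where 10.6% to 29.3% of all genes were. ITGA11, the integrin chain that binds fibrillar collagen, had a log2 fold change of 5.06 (SE 0.50) and ITGA1 of 3.69 (SE 0.43) with vehicle. ITGA2, a collagen-binding integrin chain of epithelia, was lower in stromal cells with vehicle (-6.00, SE 0.80, adjusted p = 0.00412). At 5 mM glucose its change was less negative, with a difference between the experiments of 3.20 (SE 0.97) that was not called (adjusted p = 0.390, edgeR).

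Exposure of the epithelial cells to 50 mM rather than 5 mM glucose gave 0 calls among 27 members tested, by edgeR and by DESeq2, against 0% of all genes (lowest adjusted p over the members 0.804). The study's own paired DESeq2 run did report altered genes in this comparison, with collagen type I trimer among their overrepresented terms. Its cut-off was stated as a P value without naming an adjustment, so it may differ from the threshold used here. In counts simulated for this comparison, edgeR called 3 of 86 planted log2 fold changes of 1 and 85 of 114 of 2. For 10 ng/mL insulin against vehicle in epithelial cells it called 100 of 110 of 1. The 0 calls for glucose therefore do not show that log2 fold changes near 1 were absent. At an unadjusted p under 0.05, 5 members were higher and 0 lower at 50 mM, which is 18.5% against 1.55% of all genes. These were COL1A1, COL1A2, COL3A1, COL5A2 and COL16A1. COL1A1 went from 1018, 693 and 244 CPM to 1733, 1599 and 407 CPM in replicates 1 to 3 (log2 fold change 0.91, SE 0.22). Each replicate was higher at 50 mM. The spread between replicates at a dose exceeded the change, but the replicate block takes that spread out of the test. COL16A1 went from 0.865, 0.889 and 1.10 CPM to 2.94, 6.31 and 2.25 CPM (1.88, SE 0.46), and of the 5 it was the one whose doses did not overlap. COL12A1 went from 770, 83.2 and 147 CPM to 717, 541 and 227 CPM (1.05, SE 0.55), so most of its change lay in replicate 2. The median over the members tested was 0.10, with 14 of 27 above 0, where 50.7% of all genes were above 0.

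These calls depended on replicate 2. Without it 7 members were called, all higher at 50 mM: COL1A1, COL1A2, COL3A1, COL5A1, COL5A2, COL6A1 and COL6A2. COL1A1 then had a log2 fold change of 0.79 (adjusted p = 0.000406, edgeR) and the members a median of 0.37, and 221 genes in all were called. Only 2 replicates remained in that fit. The SEs of COL1A1, COL1A2, COL3A1 and COL5A2 were nearly alike (0.0885, 0.0880, 0.0900 and 0.0876). The adjusted p thus rests mainly on a spread shared over genes and is weak evidence. COL18A1 was at 1713 CPM at 5 mM and 450 CPM at 50 mM in replicate 2, and at 410 and 403 CPM and at 444 and 444 CPM in the others. Its log2 fold change was -0.62 (SE 0.47) with replicate 2 and 0.03 without. With all replicates, 6 of the 10 fibrillar members were above 0 and 4 below. Stromal markers pointed the same way as COL1A1, COL1A2, COL3A1 and COL5A2. All 21 tested were above 0 with a median log2 fold change of 0.66, of which 0 were called and 1 had an unadjusted p under 0.05. Of the 5 smooth muscle and pericyte markers tested, 3 were above 0 and 2 had an unadjusted p under 0.05, with a median of 1.49. Their summed level went from 63.6, 61.6 and 56.3 CPM to 127, 351 and 76.5 CPM, highest in replicate 2 at 50 mM. The part of either list in the collagen values was not tested.

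In stromal cells 50 mM glucose gave 0 calls among 27 members by edgeR, against 0% of all genes (lowest adjusted p over the members 0.696). In counts simulated for this comparison, edgeR called 7 of 96 planted log2 fold changes of 1 and 68 of 104 of 2. In the deposited counts DESeq2 called 2 members, COL17A1 (log2 fold change 5.04, adjusted p = 0.0423) and COL4A3 (4.05, adjusted p = 0.00504), and 178 genes in all. The same 2 members were the ones with an unadjusted p under 0.05 in edgeR, or 7.41% against 4.87% of all genes. COL17A1 went from 12.4, 0.126 and 0.305 CPM to 32.5, 5.39 and 91.2 CPM and COL4A3 from 7.95, 0.251 and 0.244 CPM to 16.1, 5.05 and 36.0 CPM. Both were higher at 50 mM in each replicate, by edgeR log2 fold changes of 4.25 (SE 1.53) and 3.55 (SE 1.30). Without replicate 3 the values were 1.99 and 1.71. The summed epithelial markers rose in the remaining replicates too, from 1185 to 2314 CPM in replicate 1 and from 351 to 1264 CPM in replicate 2. With all replicates, the 25 epithelial markers were all above 0 as well, with a median of 4.55 and 0 called. Their part in the values of COL17A1 and COL4A3 was not tested.

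Most other stromal collagens had negative log2 fold changes, without a call. Of the 27 members tested 4 were above 0 and the median log2 fold change was -0.54, where 45.6% of all genes were above 0 and their median was -0.03. COL1A1 was at 23136, 22772 and 17538 CPM at 5 mM and 25347, 20571 and 5708 CPM at 50 mM (-0.60, SE 0.48), so it was higher in replicate 1 and lower in the others. COL12A1 was at 10893, 11583 and 14079 CPM and 8814, 8889 and 3987 CPM (-0.89, SE 0.43), lower in each replicate. Most of the shift lay in replicate 3. Without it the median was -0.09, COL1A1 was at -0.04, COL12A1 at -0.37 and COL4A1 at -0.17 rather than -0.69. Of the 23 stromal markers 1 was above 0 and 0 were called, with a median of -0.50, and their part in the collagen values was not tested.

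**Figure D4:**
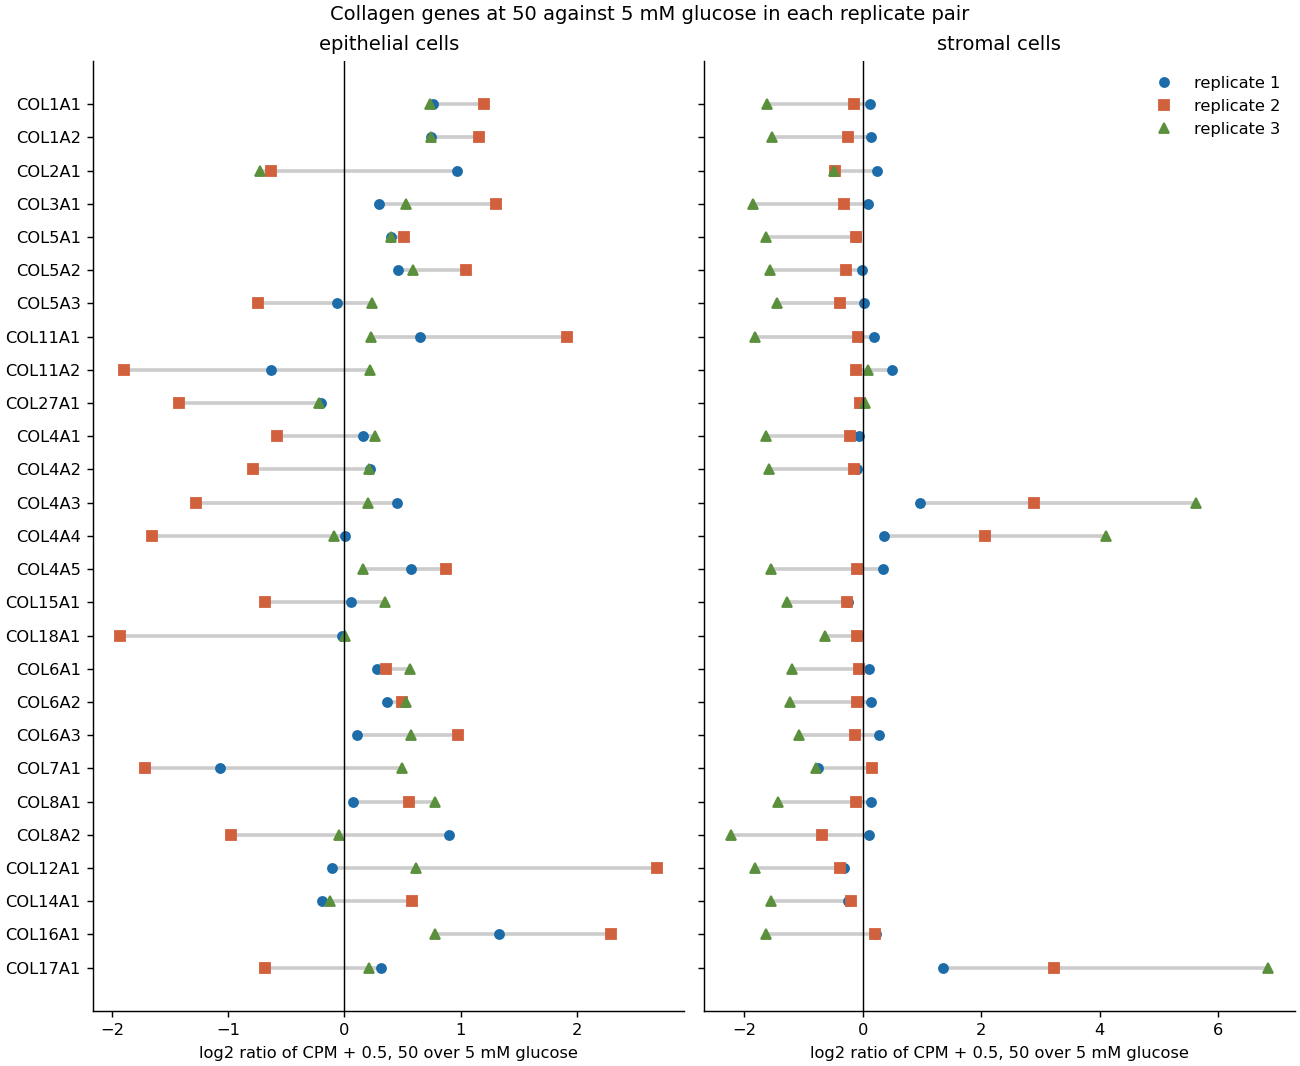
Log2 ratio of 50 mM to 5 mM glucose (CPM plus 0.5) for each replicate and each collagen tested, in epithelial and stromal cells. In stromal cells replicate 3 lies lowest for most collagens and highest for COL17A1, and in epithelial cells COL1A1 and COL1A2 lie above 0 in all 3 replicates.

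The difference between the cell types in the glucose effect was tested directly. Of 28 members 0 were called by edgeR, against 0% of all genes, with a median difference of -0.88. At an unadjusted p under 0.05 there were 9, which is 32.1% against 7.53% of all genes. In COL4A3, COL4A4 and COL17A1 the stromal change was the higher. In 6 fibrillar or fibril-associated genes it was the lower, among them COL1A1 (-1.50, SE 0.56) and COL16A1 (-2.32, SE 0.71). Without replicate 3 the median difference was -0.31, and COL17A1, COL4A3 and COL4A4 were at 2.68, 2.53 and 2.38 rather than 4.38, 3.75 and 3.41. COL1A1 was then at -0.996 and COL16A1 at -2.07, and no member was called (each of these 5 at an adjusted p of 0.809, edgeR). Without replicate 1, which keeps the library that stood apart, COL17A1, COL4A3 and COL4A4 were called, at 7.54, 6.40 and 6.59. The share of all genes called in that fit is not given here. All 25 epithelial markers had a positive difference with a median of 4.79, and 22 of 23 stromal markers had a negative one with a median of -1.22. Their part in these differences was not tested.

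No collagen passed the threshold for insulin in either cell type. The 3 comparisons within a cell type share libraries, so they are given side by side and are not independent. In epithelial cells 0 members were called by edgeR and by DESeq2 at 1 ng/mL against vehicle (0 of 26), at 10 ng/mL against vehicle (0 of 25) and at 10 against 1 ng/mL (0 of 25). Of all genes 0%, 0.124% and 0% were called. At an unadjusted p under 0.05 the first comparison had 2 members higher, the second 8 lower and the third 5 lower, against 2.95%, 6.96% and 4.44% of all genes in either direction. The 8 were COL1A1, COL1A2, COL5A2, COL4A1, COL15A1, COL18A1, COL8A1 and COL12A1. The lowest adjusted p over the members at 10 ng/mL was 0.446.

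Except in COL15A1, these differences were small beside the spread of replicates, which the replicate block takes out of the test. COL15A1 was at 71.7, 71.9 and 75.4 CPM with vehicle and 58.5, 64.5 and 72.9 CPM at 10 ng/mL in epithelial cells, lower in each replicate. Its dose means spanned 0.218 log2 units and its replicate means 0.143. COL1A1 was at 175, 88.6 and 847 CPM with vehicle, 185, 98.4 and 773 CPM at 1 ng/mL and 131, 105 and 742 CPM at 10 ng/mL in epithelial cells. Its log2 fold change at 10 ng/mL was -0.16 (SE 0.06). COL8A1 was at 7.53, 2.89 and 16.0 CPM, then 8.15, 2.55 and 13.5 CPM, then 6.91, 1.93 and 10.8 CPM (-0.42, SE 0.15). COL8A1 was lower at 10 ng/mL than with vehicle in all 3 replicates, and COL1A1 in 2 of 3. Without replicate 2 COL1A1, COL1A2 and COL3A1 were called lower at 10 ng/mL, at -0.29, -0.33 and -0.28. The share of all genes called in that fit is not given here, so the calls are not read as particular to collagens. The 19 stromal markers tested had a median of -0.08 in the same comparison, with 7 above 0.

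In stromal cells 0 members were called by edgeR and by DESeq2 at 1 ng/mL against vehicle (0 of 25), at 10 ng/mL against vehicle (0 of 25) and at 10 against 1 ng/mL (0 of 24), where 0.0157%, 0% and 0.0313% of all genes were. At an unadjusted p under 0.05 there were 1 higher and 1 lower, then 1 higher, then 4 higher, against 5.16%, 2.79% and 3.91% of all genes in either direction. COL8A1 had the lowest adjusted p of these, 0.882. It was at 14.4, 50.5 and 4.33 CPM with vehicle, 13.4, 49.9 and 4.84 CPM at 1 ng/mL and 18.8, 57.4 and 8.74 CPM at 10 ng/mL, the highest dose being the highest in every replicate. Its log2 fold change at 10 ng/mL was 0.43 (SE 0.14) against vehicle and 0.39 (SE 0.11) against 1 ng/mL. COL1A1 was at 16538, 21901 and 28561 CPM with vehicle and 16210, 25210 and 29639 CPM at 10 ng/mL (0.08, SE 0.09). At 10 ng/mL 22 of 25 members were above 0 with a median of 0.09, where 49.2% of all genes were above 0. Without replicate 2 the median was 0.03. Of the 23 stromal markers 18 were above 0 with a median of 0.083, and 6 had an unadjusted p under 0.05. Of the 16 epithelial markers tested 15 were above 0 with a median of 0.44. No marker was called, and their part in the collagen values was not tested.

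COL8A1 thus had opposite signs in the 2 cell types at 10 ng/mL insulin. The difference between them was 0.80 (SE 0.19) with an unadjusted p of 0.000716, and an adjusted p of 1 by edgeR. Of 28 members 0 were called for this difference, against 0% of all genes, and 3 had an unadjusted p under 0.05 (COL8A1, COL15A1 and COL18A1), which is 10.7% against 4.06%.

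**Figure D5:**
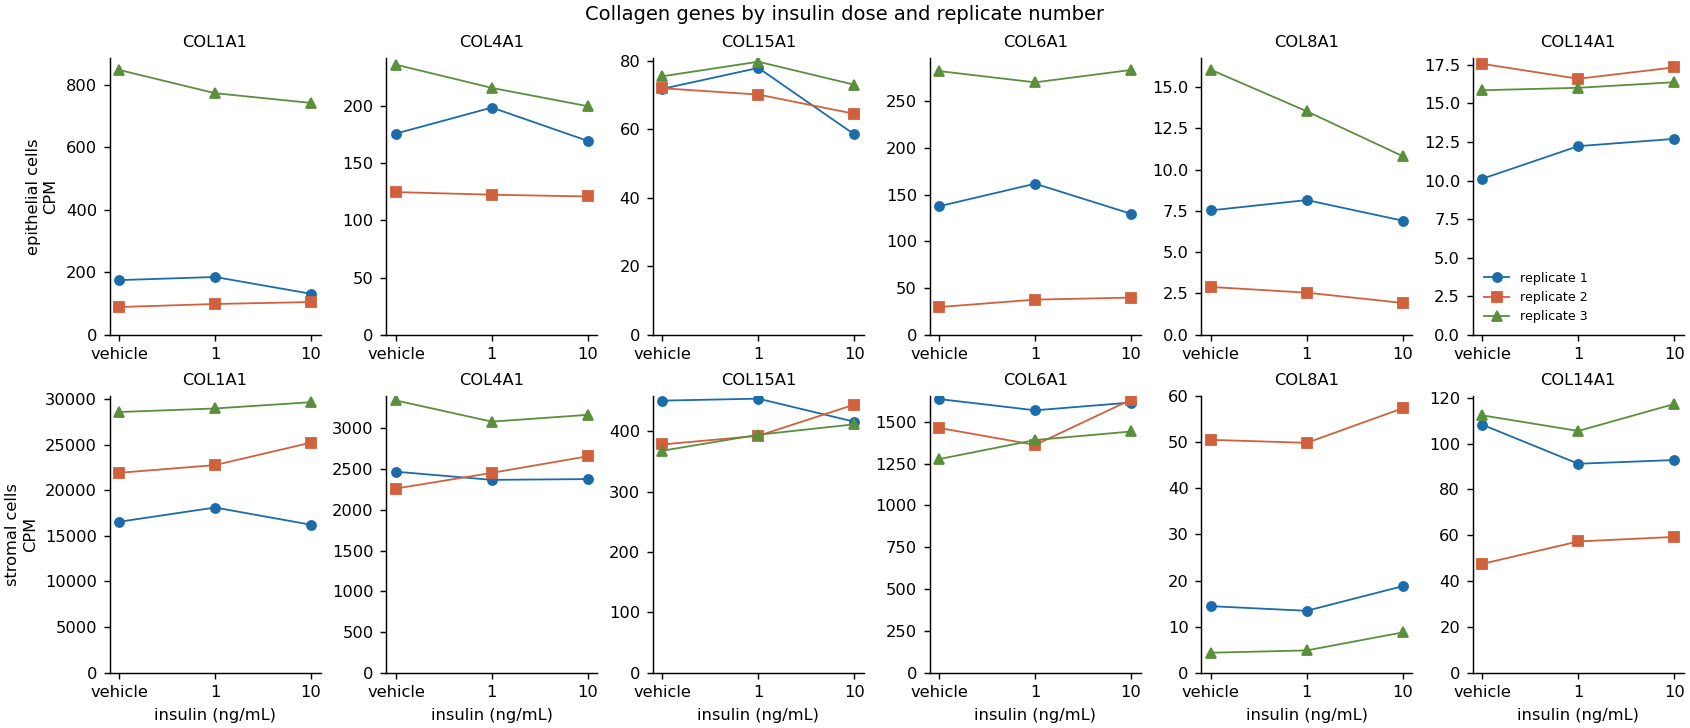
CPM on a linear axis from 0 of 6 collagens at vehicle, 1 and 10 ng/mL insulin in epithelial and stromal cells, with a line for each replicate number. In COL1A1 and COL8A1 the lines stand further apart by replicate than they move with dose, as in COL1A1 of epithelial cells at 175, 88.6 and 847 CPM with vehicle.

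Replicates differed more than doses for most collagens, as they did for most genes. In epithelial cells of the insulin experiment the means of the 3 replicates spanned a median of 2.17 log2 units per collagen and the means of the 3 doses 0.139, with the replicate span the larger in 25 of 26, or 96.2%, against 87.9% of all genes. For all genes the spans were 0.327 and 0.105. In stromal cells the collagen spans were 0.563 and 0.119, against 0.289 and 0.116 for all genes, and the replicate span was the larger in 24 of 25, against 84.3% of all genes. In the glucose experiment the collagen spans were 0.984 and 0.504 in epithelial and 1.01 and 0.579 in stromal cells. A replicate span there covered 3 means of 2 libraries each, and a dose span 2 means of 3. The replicate span therefore tends to be the larger even without any effect. There the replicate span was the larger in 24 of 28 collagens in epithelial (85.7%, against 90.0% of all genes) and 19 of 26 in stromal cells (73.1%, against 86.3%), a lower share than over all genes. In each of the 4 the replicate span of collagens was above that of all genes, which was 0.731 and 0.542 in the glucose experiment. The dose span of collagens was above that of all genes there too, which was 0.267 in epithelial and 0.166 in stromal cells. Collagen processing and receptor genes gave 0 calls in all 8 comparisons of doses by edgeR, where they had from 0 to 5 and from 0 to 2 genes with an unadjusted p under 0.05.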

How the data were processed

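RNA was sequenced by the study as stranded 75 bp single-end libraries and aligned with Rsubread, keeping uniquely mapped reads (cow genome, Ensembl release 96). The values used are the raw counts per gene that the authors made with featureCounts and deposited in 2 tables, 1 for each experiment. The labels also name FastQC, cutadapt, SAMtools and DESeq2. The strand setting of the counting is not given in the sources used here, so reads of overlapping antisense genes may be included. Symbols came from the authors' comparison tables, which named 17468 of 27607 gene IDs and whose fold changes and p-values were not used. Of the collagen names sought, 11 had no gene of that name and were not analysed here.

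Each comparison was fitted on its own 6 libraries with edgeR 4.0.16 in R 4.3.3 (TMM factors, filterByExpr, quasi-likelihood test, Benjamini-Hochberg adjustment over all genes tested), with the replicate number as a block, since the study used a paired design. The difference between cell types used all libraries of an experiment, and that between experiments the 12 libraries of the 5 mM glucose and vehicle groups. Calls needed an adjusted p under 0.05 and a log2 fold change beyond 0.1. Alternatives were no replicate block, size factors of DESeq2, no filter on low counts, leaving out each replicate number, the DESeq2 1.42.0 Wald test and 1 fit over all libraries of an experiment.

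Same-numbered libraries deviated together between doses in epithelial cells (every correlation of their deviations from the group means at 0.313 or above). Between doses in stromal cells the correlations fell to 0.105 at 10 ng/mL insulin against vehicle and 0.187 for glucose. Pairing was thus less sure in those comparisons. Between the cell types the correlations lay between 0.0334 and 0.528 and fell under 0.1 for some pairs at 5 mM glucose and 10 ng/mL insulin, so there the number may not pair the libraries. The depth of 8826470 to 16647701 reads limits the precision of genes near the floor.

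Named genes were 19 fixed collagens, every member called in a comparison, the 2 members of largest change in each class and the 5 of highest mean CPM in each cell type, and for the processing and receptor lists the 3 of largest change. COL2A1, COL4A6, COL6A5, COL9A2, COL11A2 and COL20A1 were named where the rule did not name them, after their values were seen. The members and all lists were chosen with earlier results of these data known. LOX is in both the stromal marker and the processing list, and ZEB2 has 2 gene IDs, so 22 stromal markers are 23 genes.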

Additional observations from a re-analysis of the deposited data

How the results depend on the processing

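Of the log2 fold changes of named genes recomputed under the alternatives, 841 of 910 between cell types, 97 of 104 between glucose doses, 84 of 88 between insulin doses and 51 of 54 differences kept their direction and their side of the threshold. Counts of collagen calls depended mostly on single replicate numbers, and shares of all genes called are given for only some of the alternative fits. Leaving one out gave 0 to 23 calls between cell types at 50 mM glucose (18 with all), 0 to 7 between glucose doses in epithelial cells, 0 to 3 at 10 ng/mL insulin against vehicle in epithelial cells, 0 to 1 at 10 against 1 ng/mL in stromal cells and 0 to 3 for the difference between cell types in the glucose effect, each 0 with all replicates except the first. Without replicate 1 the vehicle comparison of cell types kept 18 of its 24 calls, and COL5A3, COL6A1, COL6A2, COL6A3, COL7A1 and COL16A1 were not called. DESeq2 called 2 collagens between glucose doses in stromal cells, against 0. Without the filter on low counts 1 was called at 10 ng/mL insulin against vehicle in epithelial cells (COL1A2), 1 at 1 ng/mL against vehicle in stromal cells (COL17A1) and 1 at 10 against 1 ng/mL in stromal cells (COL8A1), each against 0. The collagen share of stromal libraries at 5 mM glucose was 9.25% with TMM-scaled totals, against 8.47%. The cause of these changes was not tested.

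Few signs turned. COL18A1 between cell types at 5 mM glucose was 0.14 with the replicate block, -0.28 with no replicate block and -0.25 to 0.74 leaving out a replicate number, and between glucose doses in epithelial cells it was -0.62 with all and -1.002 to 0.025 leaving one out. Leaving one out, COL11A2 between cell types at 50 mM glucose was -1.02 to 0.091 (-0.42 with all), and COL8A1 was -0.34 to 2.39 with vehicle (1.08) and -0.23 to 2.48 at 1 ng/mL insulin (1.17). With no replicate block the calls between cell types were 21 at 5 mM glucose, 15 at 50 mM glucose and 23 in each insulin comparison, and 0 in every comparison of doses. The shares of all genes called with no replicate block are not given here, so these counts are not set against a background. COL17A1 was then not called at 5 mM glucose (-4.16). Genes near the floor of 3 reads, such as COL17A1 in most stromal libraries, have log2 fold changes that rest on few reads.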

Other observations

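Some collagens at low levels were highest in 1 replicate number of a cell type across the treatments of an experiment. COL2A1, the fibrillar collagen of cartilage, was at 10.6 and 6.67 CPM in epithelial replicate 2 at 5 and 50 mM glucose, and at or below 1.37 CPM in every other library. COL9A2, named for a fibril-associated partner of type II collagen but annotated as a long non-coding RNA in the deposited tables, was at 1.34, 1.23 and 1.25 CPM in epithelial replicate 2 at vehicle, 1 and 10 ng/mL insulin and at or below 0.438 CPM elsewhere. COL4A6, a type IV chain found with COL4A5 beside it in the genome (ARS-UCD2.0), was at 1.31, 0.926 and 0.984 CPM in stromal replicate 1 of the insulin experiment, at or below 0.161 CPM in the other stromal libraries of that experiment, at or below 0.614 CPM in stromal libraries of the glucose experiment, and at 0 in all 15 epithelial libraries, where a count of 0 allows at most 0.34 CPM in the smallest library. COL20A1 was at 3.56 and 3.51 CPM in epithelial replicate 3 at 5 and 50 mM glucose against 0.266 to 0.667 CPM in the other 4 epithelial libraries of that experiment. In stromal libraries COL20A1 was not tied to 1 replicate number, at 0.453 to 2.49 CPM in all 9 of the insulin experiment and 0.189 to 1.82 CPM in the 6 of the glucose experiment. These genes were picked after their values were seen and none was tested for this pattern.

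COL14A1 showed the same replicate pattern at both doses in stromal cells of the glucose experiment, at 13.6, 135 and 35.5 CPM at 5 mM and 11.3, 118 and 11.8 CPM at 50 mM.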
